A study of Homo sapiens with 2 samples.

Results

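The genes examined here encode the cytosolic ribosomal proteins. They were taken by symbol from the array annotation, as RPL or RPS followed by a number, with an optional final letter, together with RPLP1 and RPLP2. Pseudogenes, the RPS6K kinases and Y-linked genes were left out. This gave 72 genes of the 20046 named on the array, 46 of the large and 26 of the small subunit, read by 119 probes. Other genes that the rule would take were not analysed here.

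The RNA came from THP-1, a cell line from a human monocytic leukaemia, in 2 stably engineered derivatives. One carried a short hairpin RNA (shRNA) against LY6E and is called shLY6E, and the other carried a scrambled shRNA and is called shCtrl. Both were grown without further treatment named in the labels, in medium with puromycin, and each was read on 1 single-colour array (n = 1 per group). The labels do not say whether a derivative is 1 clone or a pool.

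A ribosome joins a small subunit, which decodes the mRNA, to a large subunit, which forms the peptide bond. Each subunit holds ribosomal RNA and many small, basic proteins, most of them present in a single copy. Cells make these proteins in matched amounts, and their mRNAs carry a run of pyrimidines at the very start, the 5′ terminal oligopyrimidine (TOP) tract, through which the kinase complex mTORC1 controls their translation.

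On the arrays, 16378 probes (34.6%) were detected in shLY6E and 16283 (34.4%) in shCtrl at a detection p-value under 0.01. LY6E had a deposited intensity of 253 in shLY6E and 1049 in shCtrl, and was 3.67-fold lower after normalization. All 13 measured genes of the monocytic list were detected, while 0 of 4 T cell, 0 of 2 erythroid, 0 of 4 epithelial and 0 of 3 fibroblast markers were. Of 3 measured B cell markers 2 were detected, CD79B at 108 and 164 and CD79A at 112 and 126, close to the detection limit. PTPRC of the monocytic list, at 116 in shLY6E and 163 in shCtrl, was similarly dim. Among the monocytic markers 3 were at least 1.5-fold higher in shLY6E, CD14 by 10.3-fold, LYZ by 5.25-fold and CSF1R by 1.93-fold, and 1 was lower, PRTN3 by 1.61-fold. Without background correction CD14 stood at 2.19 on the log2 scale in place of 3.36, and scaled to a common median CSF1R stood at 0.53, under 1.5-fold. The part of these differences in the values below was not tested. The RNA came from whole cultures, so a different mix of cells and a different amount of an mRNA per cell cannot be told apart, nor can a change in total RNA per cell be seen.

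The ribosomal protein mRNAs differed little between shLY6E and shCtrl. Of the 72 genes, 69 were detected, each of them on both arrays, and 67 of these 69 lay within 1.5-fold. RPL14 was at least 1.5-fold higher (1.71-fold), where 6.55% of all 10565 detected genes were. RPL29 was at least 1.5-fold lower (1.61-fold), where 9.63% of all genes were. None (0) reached 2-fold in either direction, against 2.27% of all genes higher and 2.55% lower. The difference, given throughout as normalized log2 intensity in shLY6E less that in shCtrl, had a median of 0.08 over the 69 genes, with quartiles of -0.02 and 0.18. Over all detected genes the median was -0.04, with quartiles of -0.29 and 0.19, and 83.8% lay within 1.5-fold. All genes include many that are dimmer than most members, and dim genes spread more widely. The 6383 other genes with a mean normalized log2 intensity below 8 had an SD of 0.53, and the 65 of at least 13 had 0.24.

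Small differences leaned to the higher side. Of the 69 genes 49 were above 0, 19 were below 0 and RPL24 was at 0, while 45.2% of all genes were above 0. Within 1.2-fold lay 55 of the 69 (79.7%), against 53.1% of all genes, which are mostly dimmer. With 1 array per group none of this could be tested. For 30 ribosomal protein genes with 2 or more probes detected in shLY6E and in shCtrl, the SD within a gene was 0.26, so most single differences were smaller than the disagreement between probes. Scaling to a common median, instead of equalizing the whole distribution by quantiles, changed the direction. All genes shifted to a median of -0.42 and the ribosomal protein median turned to -0.15, which is 0.27 above all genes rather than 0.12. That common median was taken over all probes, of which 34.6% in shLY6E and 34.4% in shCtrl were detected. It thus lies among undetected probes and aligns the arrays at that level. Above the median of all genes lay 56 of the 69 members, and 60 with the other scaling.

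**Figure D1:**
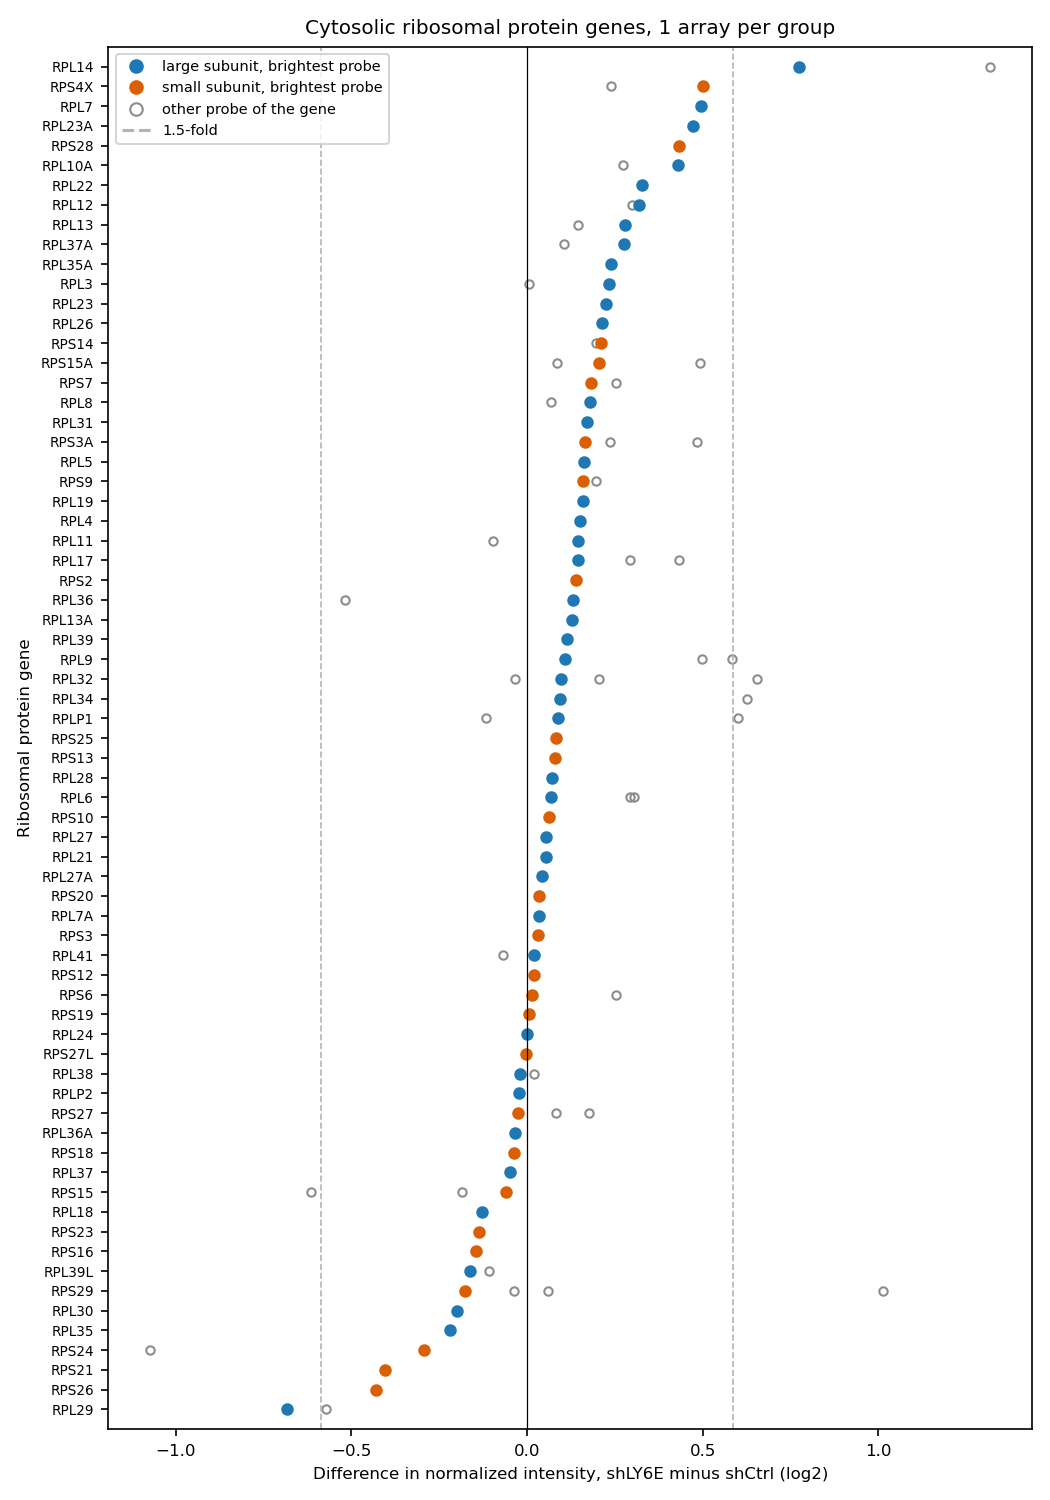
Difference between shLY6E and shCtrl (log2 of normalized intensity, x axis) for the 69 detected ribosomal protein genes (y axis, sorted), with the brightest probe of each gene filled and coloured by subunit and its other probes open. Only RPL14 and RPL29 pass the dashed 1.5-fold lines with their brightest probe, and the farthest open points belong to RPL14, RPS24 and RPS29; with the arrays scaled to a common median the members' median of 0.08 became -0.15.

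The deposited intensities, before any correction, were lower in shLY6E for most members, as for most detected genes. The shLY6E array was dimmer, with a median of 97.5 over all probes against 116 in shCtrl. For the probes of detected genes the median ratio of shLY6E to shCtrl was 0.734, and for the 69 ribosomal protein genes it was 0.834, from 0.473 to 1.09. The ratio of the array medians over all probes was 0.840, so the members stood above detected genes but not above that ratio. These array medians lie below the lowest detected intensities of 106 and 129, so 0.840 describes undetected probes. Only 4 members were brighter in shLY6E than in shCtrl before normalization. RPL10A read 9915 in shLY6E and 9176 in shCtrl. RPS4X read 6390 and 5851. RPL14 read 600.3 and 551, and RPL12 11982 and 11885. The other 65 read lower in shLY6E, as most probes did.

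**Figure D2:**
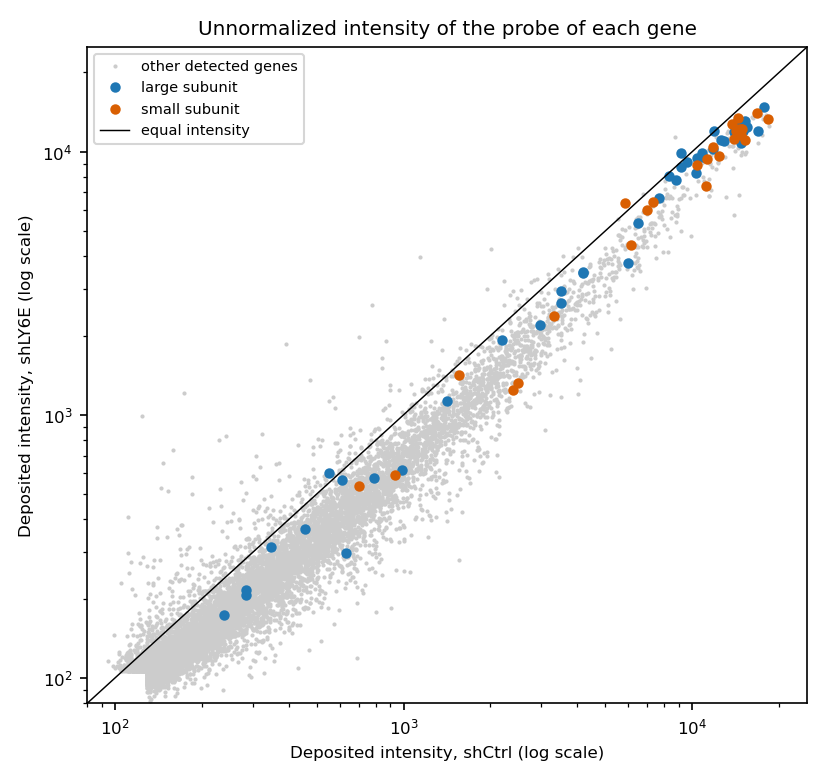
Deposited intensity in shCtrl (x axis, log scale) against shLY6E (y axis, log scale) for the probe of each detected gene, with ribosomal protein genes coloured by subunit and the line of equal intensity in black. Most ribosomal protein probes lie at the bright end, below the line, and RPL14, RPS4X, RPL10A and RPL12 lie above it.

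Many of these probes were read near the top of the arrays' range. In shLY6E 26 and in shCtrl 34 of the 69 exceeded an intensity of 10000, where the brightest probe of any gene stood at 15721 and 20607. The tables hold no saturation flag, and whether differences are compressed at this end was not tested. The 38 members with a mean normalized log2 intensity of at least 13 had an SD of 0.14 around a median of 0.07. The 65 other genes as bright had an SD of 0.24 and a median of -0.11. The 31 members below 13 had a median of 0.13. From 12 to 13 the SDs of members and other genes were 0.21 and 0.22, and from 8 to 10 they were 0.44 and 0.45. From 10 to 12 they were 0.27 and 0.38, and below 8, with 4 members, 0.24 and 0.53. Members and other genes thus spread about alike from 8 to 10 and from 12 to 13. Brightness of a probe also depends on the probe, so levels of different genes are not compared here.

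Many of the members share a feature at the start of the gene. RefSeq promoters (GRCh38.p14, 250 bases before to 50 after the annotated start) were found for 60 of the 72 genes. A C followed by at least 4 letters that are each C or T stood at the annotated start, on the sense strand, in 40 of the 60 (66.7%), against 3.91% of 27245 other promoters. The longest such run was 19 bases. The starts of the 4 lowest and 4 highest members with a promoter in the table outside the chromosomes not printed, and of the paralogs RPS27 and RPS27L, are shown to set these runs beside the values. Each line gives 10 bases before and 20 bases from the start, 5′ to 3′, with the run in capitals.
RPL29: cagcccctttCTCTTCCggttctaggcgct
RPS26: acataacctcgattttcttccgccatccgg
RPS21: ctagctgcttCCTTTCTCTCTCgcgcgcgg
RPS24: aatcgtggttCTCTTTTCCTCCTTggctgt
RPL14: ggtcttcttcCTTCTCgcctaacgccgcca
RPS4X: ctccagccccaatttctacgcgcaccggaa
RPS28: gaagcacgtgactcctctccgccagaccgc
RPL10A: aagacatgctagtctcttttccggttagcg
RPS27: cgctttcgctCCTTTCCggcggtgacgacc
RPS27L: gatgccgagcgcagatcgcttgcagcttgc

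These windows lie at chr3:51995876-51995905 on the minus strand for RPL29, chr12:56041908-56041937 (plus) for RPS26, chr20:62387093-62387122 (plus) for RPS21 and chr10:78033853-78033882 (plus) for RPS24. For the higher genes they lie at chr3:40457329-40457358 (plus) for RPL14, chrX:72277229-72277258 (minus) for RPS4X, chr19:8321486-8321515 (plus) for RPS28 and chr6:35468391-35468420 (plus) for RPL10A. RPS27 lies at chr1:153990752-153990781 (plus) and RPS27L at chr15:63157458-63157487 (minus). The last 20 bases of each belong to the first exon. Among the lowest 4 shown, 3 carry the run at the annotated start, and among the highest 4 shown, RPL14 does. RPL7 and RPL23A, which rank between RPS4X and RPS28, are not shown. In RPS28, RPL10A and RPS26 a run of C and T begins just after the annotated start and was not counted. This contrast therefore depends on which genes are shown and on the exact start. The 40 members with the run had a median difference of 0.05, from -0.68 to 0.77, and the 18 detected members with a promoter but no run at the start had 0.15, from -0.43 to 0.50. The ranges overlap, and annotated starts can lie some bases off the main start in a given cell.

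Motifs in the 300-base window, on either strand, were counted as letters. The sequence CCGGAAG, read by GABP and other ETS factors, was in 21 of 60 member promoters, against 10.6% of the others. AAGATGG, part of the YY1 motif, was in 13.3% against 6.05%. The run CTTTCC was in 46.7% against 26.3% and CTTTTC in 18 of 60 against 21.2%, and both can overlap the TOP run. The SP1 box GGGCGG was in 56.7% against 44.6%, and the TATA box letters TATAAA in 8.33% of the member promoters, against 3259 of the 27245 others. In a list of 8 transcription factor genes named at ribosomal protein promoters, which also holds factors of other motifs such as MYC and E4F1, GABPB1, a GABP subunit gene, read 398 in shLY6E and 362 in shCtrl and was 1.79-fold higher, although its dimmest probe gave -0.01. GABPA, the other GABP subunit gene on the list, had a difference of -0.09, and YY1 had 0.27. SP1 had a difference of -0.29, TBPL1, a TBP relative, 0.37 and TBP, which binds the TATA box, 0.04. The median of the list was -0.03, with 1 gene at least 1.5-fold higher and 0 lower, against 6.55% and 9.63% of all genes.

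The large subunit genes had a median of 0.12 (SD 0.23 over 43 genes) and the small subunit genes 0.03 (SD 0.21 over 26 genes), a gap of 0.09. Scaled to a common median, both medians were below 0, at -0.13 and -0.17, with all genes at -0.42. Above 0 were 33 of 43 large subunit genes (76.7%) and 16 of 26 small subunit genes (61.5%). The ranges overlap almost wholly, from -0.68 to 0.77 for the large and from -0.43 to 0.50 for the small subunit. The gap is smaller than the SD of single genes within either subunit, but that SD is not the error of a median. Scaled to these numbers of genes, the SD between probes of a gene came to 0.07. That value leaves out any error between arrays, so it is no measure of whether the gap would recur. With the arrays scaled to a common median the gap was 0.04. With 1 array per group the gap was not tested.

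In the large subunit, RPL14 stood highest. Both of its probes read higher, the brighter with 600.3 in shLY6E and 551 in shCtrl and the dimmer with 324 and 240, for differences of 0.77 and 1.32. With the arrays scaled to a common median, RPL14 stood at 0.31 and was no longer 1.5-fold apart. RPL7 read 563 and 610 (0.49). RPL23A, at the rim of the tunnel through which the new peptide leaves, read 314 and 348 (0.47). RPL10A, the protein of the L1 stalk that guides the outgoing tRNA, differed by 0.43 and 0.27 on its probes. RPL22, whose loss impairs T cell development in mice, had a difference of 0.33, and RPL12, at the base of the factor-binding stalk, 0.32, with 0.30 on its other probe.

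RPL29, also known as a heparin-binding protein, was lowest of all. Its brighter probe read 299 in shLY6E and 632 in shCtrl and its dimmer probe 285 and 560, for differences of -0.68 and -0.57. Both probes read lower in shLY6E, and without background correction RPL29 stood at -0.55, inside 1.5-fold. RPL35, another protein of the tunnel rim, read 3787 and 6007 (-0.22), and RPL30, which in yeast represses the splicing of its own pre-mRNA, read 11949.7 and 16856 (-0.20). The 7 genes of the tunnel rim had a median of 0.16 with 6 above 0, among them RPL26 at 0.21.

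The stalk recruits the elongation factors. RPLP1 and RPLP2, its acidic proteins, read 11923 and 11969 in shLY6E and 13992.5 and 15014 in shCtrl, with differences of 0.09 and -0.02. The 3 measured stalk genes had a median of 0.09. The other probes of RPLP1 gave -0.12 and 0.60, so its direction depends on the probe. RPL5 and RPL11 carry the 5S RNA into the large subunit and, when ribosome assembly fails, bind the p53 regulator MDM2. RPL5 differed by 0.16 and RPL11 by 0.15, though RPL11's other probe gave -0.10. RPL13A, a member of the GAIT complex that silences inflammatory mRNAs in interferon-treated monocytes, read 3450 and 4201, a difference of 0.13.

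In the small subunit, RPS4X stood highest. It is X-linked and its probes read 6390 and 4693 in shLY6E and 5851 and 5363 in shCtrl, for differences of 0.50 and 0.24. RPS28, near the mRNA exit channel, followed with 1418 and 1554 (0.43). RPS6, the substrate of the S6 kinases, differed by 0.01, with 0.25 on its other probe. RPS3, at the mRNA entry and also described as a partner of NF-kB RELA, read 12237 and 14786 and differed by 0.03.

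The lowest small subunit genes were RPS26, RPS21 and RPS24. RPS26, which contacts mRNA at the exit channel, read 1244 in shLY6E and 2390 in shCtrl (-0.43). Its dimmer probe was detected in shCtrl only and gave a bound of -0.71. A probe named for the pseudogene RPS26P11 read 2719 and 5433 (-0.57), and near-identical copies of this kind may share their signal. RPS21 read 1325 and 2489 (-0.40) with 1 probe. RPS29, a zinc-binding protein of the head, gave -0.18 with its brightest probe and -0.04, 0.06 and 1.01 with the others, and 0.22 as the mean over probes, so no direction can be given for it.

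RPS24 is the 1 member on chromosome 10. Its brighter probe read 7421 in shLY6E and 11187 in shCtrl, a difference of -0.29, and its dimmer probe read 460 and 1284, a difference of -1.07. Both probes read lower, by 1.22-fold and 2.10-fold. Of the 397 other detected genes on chromosome 10, 362 were below 0, with a median of -0.72. The part of the chromosome in the RPS24 value was not tested. Elsewhere the member medians per chromosome with at least 3 members ran from -0.05 on chromosome 5 to 0.20 on chromosome 16. RPS21, alone on chromosome 20, stood at -0.40, where 298 other genes had a median of 0.02.

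Mutations in several members cause Diamond-Blackfan anaemia, an inherited failure of red cell production. A list of 8 such genes, which need not be complete, was read here. Of these 8, 6 were above 0 (75%), with a median of 0.11, against 71.0% of the detected members and 45.2% of all genes. RPS26 and RPS24 were the 2 of this list below 0, and RPL35A at 0.24 was its highest.

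Probes of the same gene agreed in sign for 22 of the 30 genes just described. The 8 with opposite signs were RPL11, RPL32, RPL36, RPL38, RPL41, RPLP1, RPS27 and RPS29. Probes lay more than 0.5 apart for 8 genes, namely RPL14, RPL32, RPL34, RPL36, RPLP1, RPS15, RPS24 and RPS29. The dimmest probe gave the larger difference in 18 of the 30. RPL32 ran from -0.03 to 0.66 over 4 probes, RPL36 from -0.52 to 0.13, RPL34 from 0.10 to 0.63 and RPS15 from -0.61 to -0.06. RPL38 stayed between -0.02 and 0.02, and RPL41 between -0.07 and 0.02. Ribosomal protein genes have many processed pseudogenes, so a probe may read more than its named gene.

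Some members have a paralog of the same name with a final L. RPS27, a zinc finger protein of the small subunit, differed by -0.03 and RPS27L, a p53 target, by -0.004. RPL39, which lines the exit tunnel, differed by 0.12 and RPL39L, best known from male germ cells, by -0.16 and -0.11 on its probes. RPL3, of the peptidyl transferase region, differed by 0.23, and 0.01 on its other probe, while RPL3L, a gene of heart and skeletal muscle, was not detected (intensity 89.1 in shLY6E and 114 in shCtrl). RPL10L, of the testis, was not detected either (92.5 and 114). RPL10 read 95.5 and 108 with its brighter probe and was not detected, which says that these probes gave no signal, not that the mRNA is missing. Of the paralogs that the naming rule leaves out, RPL7L1, RPL36AL and RPL26L1 differed by -0.14, -0.04 and 0.03, and RPL22L1 was not detected. FAU, whose product is cleaved to the small subunit protein eS30, differed by -0.12.

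In the other lists of the translation machinery the medians ran from -0.13 to 0.24. Most of their genes at least 1.5-fold lower lie on chromosome 10, where the other genes had a median of -0.72. The part of the chromosome in these values was not tested. Of 58 detected ribosome assembly factors 0 were at least 1.5-fold higher and 2 lower, against 6.55% and 9.63% of all genes. Their median was 0.04. The 2 lower factors were RRP12 (2.27-fold) and NOC3L (2.16-fold), both of which lie on chromosome 10. NOC3L read 120 and 223 and stood at -0.52 without background correction, which leaves 1 gene past 1.5-fold. FBL, the rRNA methyltransferase fibrillarin, was 1.39-fold higher. The 11 RNA polymerase I genes, which serve rRNA synthesis, had a median of 0.07 and none (0) was 1.5-fold apart. Of all genes 83.8% lay within 1.5-fold. POLR1D stood at 0.44, POLR1B at -0.35 and TAF1C at -0.25.

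Among 36 initiation factors, with a median of 0.05, EIF4E3, a cap-binding protein, was 2.97-fold higher and EIF3A, the largest eIF3 subunit and a chromosome 10 gene, 2.04-fold lower. EIF3J stood at 0.58. Of 4 termination and recycling factors (median 0.24) GSPT2 was 2.20-fold higher, while ETF1 and ABCE1 stood at 0.29 and 0.18. EIF4E3 read 164 and 132 and GSPT2 168 and 151, near the lowest detected intensities of 106 and 129, and without background correction they stood at 0.67 and 0.54 in place of 1.57 and 1.13. The 8 elongation factors had a median of -0.12, or 0.03 as the mean over probes, with EEF1A2 at -0.56, EIF5A2 at -0.33 and EEF1G at 0.25.

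Other mRNAs known to start with a TOP tract had a median of 0.10 over 22 genes. Among them IPO7, an importin, read 177 in shLY6E and 164 in shCtrl and HNRNPA1, an mRNA-binding protein, 343 and 336, both past 1.5-fold higher after normalization. Without background correction they stood at 0.51 and 0.54, both under 1.5-fold, and HNRNPA1 was also under it as the mean over probes (0.52) and scaled to a common median (0.25). EIF3H stood at 0.50, and 0 were 1.5-fold lower. In the mTORC1 and translation control list, 4 of 21 genes lay past 1.5-fold on the lower side, against 9.63% of all genes. The median of that list was -0.13. PDCD4, an inhibitor of the helicase eIF4A, was 2.29-fold lower, LARP4B 1.82-fold and DDIT4, an inhibitor of mTORC1, 1.72-fold, and these 3 lie on chromosome 10. LARP4, on chromosome 12 and named after its value was seen, was 1.62-fold lower, read 107 and 156, and stood at -0.24 without background correction. Without its 4 chromosome 10 genes the list had a median of 0.02.

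**Figure D3:**
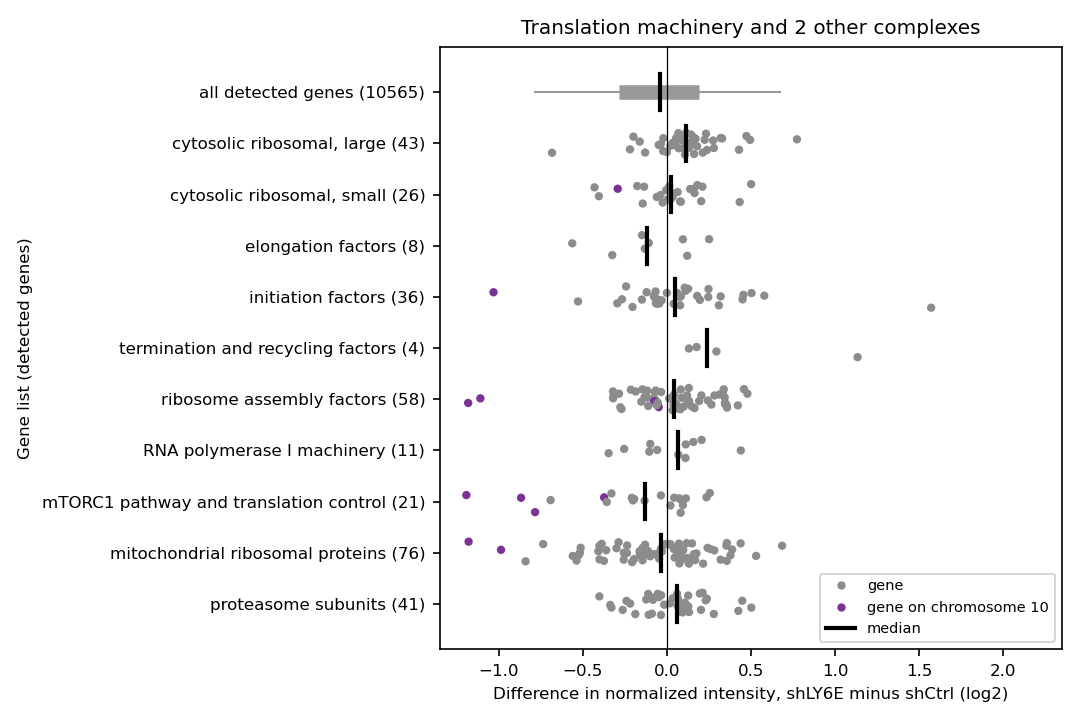
Difference between shLY6E and shCtrl (log2 of normalized intensity, x axis) for detected genes of the ribosome, of other translation lists and of 2 further complexes (y axis, number of genes in brackets), with chromosome 10 genes in purple and medians as black bars; for all genes the bar spans the quartiles and the line the 5th to 95th percentile. The ribosomal protein genes cluster near 0, with a median of 0.08 that became -0.15 under scaling to a common median, and the lowest points of the assembly, initiation, mTORC1 and mitochondrial lists are purple.

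Against the other large complexes, the 76 mitochondrial ribosomal protein genes, whose products form the ribosome of the mitochondrion, had a median of -0.03 and an SD of 0.33. Past 1.5-fold were 1 gene higher and 4 lower, against 6.55% and 9.63% of all genes. The higher gene was MRPS25 (1.61-fold). The lower ones were MRPS16 (2.26-fold) and MRPL43 (1.98-fold) on chromosome 10, MRPL17 (1.79-fold) and MRPL41 (1.67-fold). The dimmest probe of MRPL43 gave 0.03, so its direction depends on the probe, and MRPS25 stood at 0.43 without background correction. The 41 detected proteasome genes had a median of 0.06 and an SD of 0.21. None (0) was 1.5-fold apart, where 83.8% of all genes lay within 1.5-fold. PSMD3 stood at 0.50, PSMB9 at 0.45 and PSMC4 at 0.42. The cytosolic ribosomal protein genes had an SD of 0.22. Differences between these lists were not tested. Scaled to a common median, 26 of the 76 mitochondrial and 5 of the 41 proteasome genes lay at least 1.5-fold lower, against 32.9% of all genes. Their medians were then -0.47 and -0.38, beside -0.42 for all genes.

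**Figure D4:**
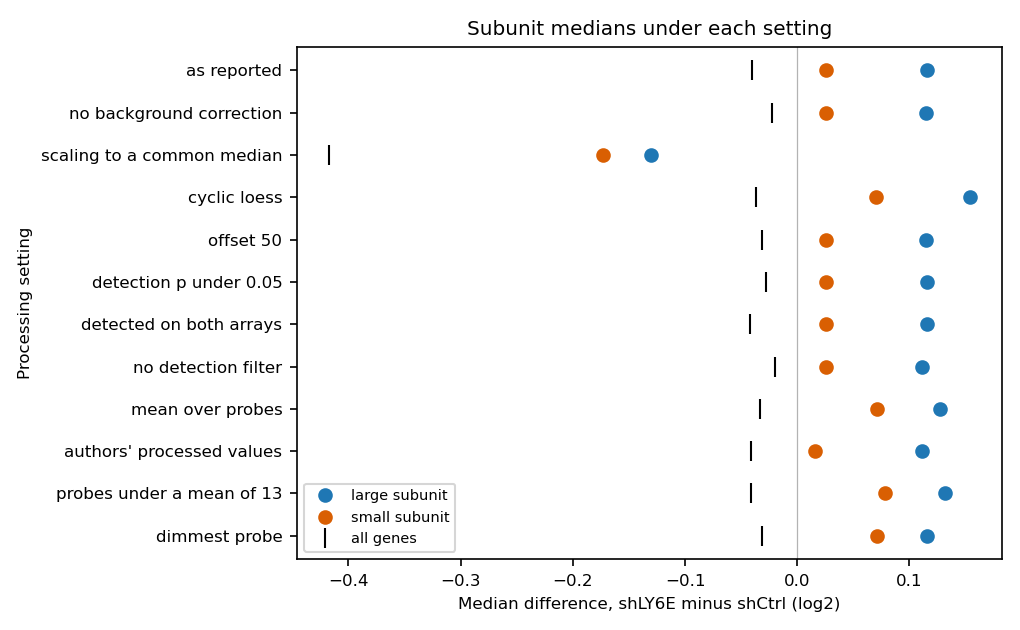
Median difference between shLY6E and shCtrl (log2, x axis) of the large subunit, the small subunit and all genes under each processing setting (y axis). Scaling to a common median moves all 3 to the left, to -0.13, -0.17 and -0.42, and the large subunit lies to the right of the small one under each setting.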

How the data were processed

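Total RNA of 2 THP-1 derivatives was read on 1 Illumina array each; sample titles gave the groups. The authors deposited an unnormalized table of 47321 probes, which holds 1 intensity and 1 detection p-value per probe and array, per the file headers. A separate deposited table holds intensities that the authors had processed, on a linear scale with 25.5% of values below 0 and a median of 6.14 in both columns, as read from the values. For the software behind either table the sources used here give nothing. Each column belonged to a sample (0 columns did not).

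Intensities were corrected with the normexp model through the detection p-values, with an offset of 16, then quantile-normalized and log2-transformed (limma 3.58.1, R 4.3.3). Later steps used Python 3.11.15, numpy 2.4.6, pandas 2.3.3 and matplotlib 3.10.9. Detection required a p-value under 0.01, and genes with a probe detected in shLY6E, shCtrl or both were kept. The brightest kept probe on the log2 scale stood for its gene. Probes were named through the platform annotation, which lists 30113 with 1 gene symbol and 8 with several and does not list 17200. All 72 member symbols matched RefSeq of GRCh38.p14 by Entrez ID. Promoter sequences came from RefSeq of the same build.

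With 1 array per group no p-value was computed, and genes were counted at 1.5-fold and 2-fold. Precision is limited by the number of arrays. The steps were tested on a simulated pair of arrays with equal background and scale, unlike the real pair, where shLY6E was dimmer. That simulation therefore cannot decide between the ways of scaling. The members, the gene lists and the settings were chosen with earlier results of these data known. The rule for named genes took LY6E, the 8 highest and 8 lowest members, members not detected, paralogs with their parent genes, the stalk and 5S particle members, RPS3, RPS6, RPL13A, RPS24, members with discordant probes, and the 3 largest differences of each other list. Other members, such as RPL24 and RPL9, were named after their values were seen. The 9 alternative settings and the 2 added after seeing the data are named in the closing section.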

Additional observations from a re-analysis of the deposited data

How the results depend on the processing

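Under 9 listed settings and 2 added after seeing the data (probes under a mean of 13, and the dimmest probe of a gene), the large subunit median stayed above the small subunit median, by 0.04 to 0.10. Scaling to a common median, taken over all probes and so at the level of undetected ones, shifted all genes to -0.42. It turned the ribosomal protein, large and small subunit medians to -0.15, -0.13 and -0.17. With it, 0 members were at least 1.5-fold higher and 5 lower (RPL29, RPS26, RPS21, RPL39L and RPS23), against 2.43% and 32.9% of all genes, and LY6E stood at -2.32. Relative to all genes the ribosomal protein median lay between 0.10 and 0.27 higher in these settings. Without background correction 0 members were 1.5-fold lower, against 3.49% of all genes, and LY6E stood at -1.55. As the mean over probes 2 members were 1.5-fold lower, RPL29 and RPS24, against 8.85% of all genes. The other 6 settings (cyclic loess, offset 50, detection at p under 0.05, genes detected on shLY6E and shCtrl alike, all genes unfiltered, and the authors' processed values) left the counts at RPL14 and RPL29, with medians of 0.07 to 0.12. With the dimmest probe 5 were higher (RPL14, RPL32, RPL34, RPLP1 and RPS29) and 3 lower (RPS15, RPS24 and RPS26), against 6.89% and 8.98% of all genes, and GABPB1 and MRPL43 changed sign, to -0.012 and 0.029. The 31 members with probes under a mean of 13 had a median of 0.13. Causes were not tested. Of 69 members, 25 kept their sign under all 9 settings and 59 under the 8 without median scaling. A value was taken as moved when it changed by more than the SD between probes of a gene, 0.28 over all genes, divided for medians by the root of the number of genes. Dim probes near the detection limit and probes near the top of the range limit what can be read. No paired analysis was possible because only 1 array stood for each group.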

Other observations

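Probes named for ribosomal protein pseudogenes were read as well. Of 31 such probes for 20 pseudogenes, 20 probes for 15 pseudogenes were detected, with a median difference of 0.05. RPL23AP64 stood highest at 0.61 and RPS26P11 lowest at -0.57, beside 0.47 for RPL23A and -0.43 for RPS26; both pseudogenes were named because they lie at the ends of the range. The brightest probe was 1 of 2 for RPL13AP5, which stood at 14540 and 13370 on its probes in shLY6E and 17803 and 16726 in shCtrl, with differences of -0.003 and -0.05. The parent gene RPL13A differed by 0.13. Whether these probes read the pseudogene or its parent mRNA was not tested.

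All 119 probes of the ribosomal protein genes together made up 4.99% of the summed deposited intensity in shLY6E and 4.55% in shCtrl. With each array's median subtracted first the shares were 7.46% and 6.49%. Such a share rests on the brightest probes and is not a share of mRNA.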
